A study of Caenorhabditis elegans with 9 samples.

Results

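The worms fed *cco-1* RNAi were compared directly with the worms fed *his-3* RNAi, without passing through the empty vector (EV). The comparison takes the 3 *cco-1* RNAi libraries against the 3 *his-3* RNAi libraries, each from a separate worm culture, and covers the 16817 of 46739 counted genes that had more than 5 reads in more than 3 of the 9 libraries of the series. All animals were *C. elegans* of the wild-type strain N2, synchronized by bleaching, placed as L1 larvae on RNAi plates and collected as whole L4 larvae. The treatment of the 3 groups was the bacteria they ate, which carried *cco-1* RNAi, *his-3* RNAi or the EV used as control. The 3 EV libraries are given here as a background level.

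RNAi by feeding lowers the mRNA that matches the double-stranded RNA made by the bacteria. *cco-1* is a nuclear gene for a subunit of complex IV, the last complex of the mitochondrial respiratory chain. Loss of such a subunit in larvae is known to switch on the mitochondrial unfolded protein response, in which the transcription factor ATFS-1 moves to the nucleus and raises the genes of mitochondrial chaperones and proteases. *his-3* encodes histone H2A, 1 of the core histones around which DNA is wound. The worm carries many near-identical H2A genes, so that the *his-3* clone matches several of them. The *cco-1* clone is thus aimed at the respiratory chain and the *his-3* clone at the nucleosome, and the direct comparison shows in which genes the worms under these treatments differed.

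The reads on genes numbered 25129763 to 28606123 in the *cco-1* RNAi libraries, 27253253 to 29089902 in the *his-3* RNAi libraries and 28051414 to 32017517 in EV. Values are given as normalized counts, that is, reads scaled by edgeR's TMM method to a library of average effective size. Each difference was tested with the quasi-likelihood F test of edgeR, fitted to all 9 libraries, and every adjusted p is from this test with Benjamini-Hochberg adjustment over the 16817 genes. A log2 fold change is *cco-1* RNAi over *his-3* RNAi, so that a positive value means more mRNA with *cco-1* RNAi. The biological coefficient of variation was 4.11% among the *cco-1* RNAi libraries, 6.50% among the *his-3* RNAi libraries and 3.54% in EV. The *his-3* RNAi libraries were thus the most spread, and they also contained reads from more genes, 20418 to 20670, against 19401 to 19570 with *cco-1* RNAi and 19451 to 19550 in EV.

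The targeted genes were examined first. *cco-1* is listed as *cox-5B* (WBGene00000371, chromosome I of WBcel235, 9788725 to 9790050), and it had 4945, 4538 and 4656 normalized counts with *cco-1* RNAi, against 9261, 9633 and 9409 with *his-3* RNAi. The groups did not overlap, and *cox-5B* was lower with *cco-1* RNAi (log2 fold change −1.0, standard error 0.0459, adjusted p = 5.41e-12). EV had 12649 ± 125 (SD, n = 3), above all 6 RNAi libraries, so that the *his-3* RNAi libraries lay between the *cco-1* RNAi libraries and EV. *his-3* (WBGene00001877, chromosome V, 16040808 to 16041191) had 22.5, 16.97 and 13.6 normalized counts with *cco-1* RNAi, against 107, 100.3 and 119.9 with *his-3* RNAi. Its mRNA was thus lower under RNAi against the respiratory chain gene than under its own RNAi (log2 fold change −2.60, standard error 0.174, adjusted p = 8.2e-10), and both groups lay below the 175 ± 5.33 of EV (SD, n = 3). Reads that align equally well to several H2A genes were not counted, which limits the value of *his-3* as a check of its own knockdown.

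In the direct comparison, 1210 genes (7.2% of those tested) were lower with *cco-1* RNAi at an adjusted p under 0.05 and a fold change of at least 4, and 315 genes (1.87%) were higher. Lower genes were 3.84 times as many as higher ones at this threshold. With the adjusted p alone, 5354 genes (31.8%) were higher and 6190 (36.8%) lower, so that higher genes made up 46.4% of the calls. This split depended on how the libraries were scaled. Higher genes made up 50.3% of the calls with DESeq2 size factors (5843 higher and 5764 lower), so that the larger side changed, and 35% when scaled by library size only and 31.8% when scaled by *act-1* and *pmp-3*. The median of all genes was −0.0024 with DESeq2 size factors and −0.169 and −0.203 under the other 2 scalings, against −0.045 in the fit used here. The counts of each gene list below are to be read beside the 31.8% higher and 36.8% lower of all genes. All *cco-1* RNAi libraries lay above all *his-3* RNAi libraries in 5586 of the 16817 genes, and below them in 6394. Groups that did not overlap were thus the usual case among the genes tested. Most differences were small, and for 11423 genes (67.9%) the 95% interval of the log2 fold change lay wholly between −1 and 1. In the plot of fold change against mean level, the genes thus form a narrow band around 0 with a heavier lower side.

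**Figure D1:**
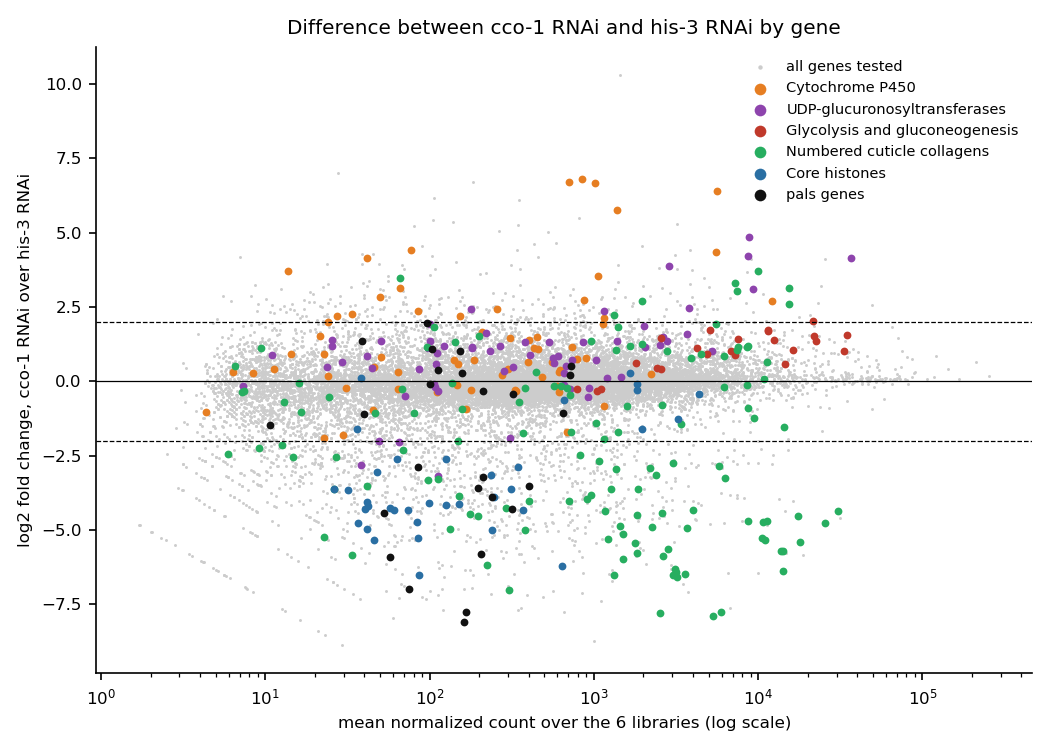
Log2 fold change of *cco-1* RNAi over *his-3* RNAi (vertical axis) against the mean normalized count of the 6 libraries (horizontal axis, log scale), 1 point for each of the 16817 genes, with 6 gene lists in colour and dashed lines at a 4-fold difference. The 1210 lower genes outnumber the 315 higher ones, and core histones and collagens lie mostly below 0, P450 genes mostly above.

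Part of the lower side entered the test through EV. A gene was tested when it had over 5 reads in more than 3 of the 9 libraries, and 297 of the 1210 4-fold lower genes and 18 of the 315 4-fold higher ones would not have passed on the 6 libraries of the 2 treatments alone. Among them were 13 of the 26 lower C-type lectins, 8 of the 27 lower core histones, 6 of the 70 lower numbered collagens and 4 of the 12 lower *pals* genes. With the filter on the 6 libraries, 292 genes were higher and 920 lower. Of the 835 tested genes with a mean normalized count under 10 over these 6 libraries, 137 were lower by at least 4-fold, of which 131 would not have passed, so that this count says nothing of how differences vary with level. Of the 4721 genes between 1000 and 10000, 3.94% were lower and 1.5% higher. Among the 6 nuclear chromosomes, X and V had the largest shares of 4-fold lower genes, with 9.40% on X and 10.1% on V, whereas chromosome III had 3.31% and chromosome I 4.42%. Chromosome V also had the largest share of 4-fold higher genes, with 3.74%.

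Among the 12 genes furthest above *his-3* RNAi by fold change, at a mean level of at least 100 normalized counts, 5 were cytochrome P450 genes, which encode enzymes that oxidize foreign compounds and lipids. *cyp-14A4* (WBGene00010706) had 11282, 11331 and 10765 normalized counts with *cco-1* RNAi, against 122, 96.6 and 181 with *his-3* RNAi. Every *cco-1* RNAi library was far above every *his-3* RNAi library (log2 fold change 6.39, standard error 0.11, adjusted p = 3.8e-17). *F22B3.7*, a gene with no name of its own, had 3022, 2775 and 2842 normalized counts with *cco-1* RNAi, against 3.75, 0 and 2.83 with *his-3* RNAi, and was close to silent in 2 groups, since EV had 0, 6.63 and 4.73. *lbp-8*, which encodes a lipid-binding protein of the lysosome, had 361, 413 and 324 normalized counts with *cco-1* RNAi, against 4.68, 3.68 and 1.89 with *his-3* RNAi. It was lower in EV than with *cco-1* RNAi, at 29.6 ± 2.87 (SD, n = 3), and lower still with *his-3* RNAi, so that its log2 fold change of 6.69 (standard error 0.207, adjusted p = 2.95e-14) held a difference of 3.62 for *cco-1* RNAi over EV and of −3.07 for *his-3* RNAi over EV. The other genes of this group were *cyp-13A7*, *cyp-13A8*, *cyp-13A12*, *cyp-14A1*, the ammonium transporter gene *amt-1*, the glutathione transferase gene *gsto-2*, the esterase gene *cest-35.2* and the C-type lectin genes *clec-7* and *clec-17*. Their log2 fold changes lay between 5.35 for *gsto-2* and 6.80 for *cyp-13A7*.

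The 12 genes furthest below *his-3* RNAi were of 2 kinds in their EV level. *col-120*, a cuticle collagen gene, had 57.3, 26.96 and 80.6 normalized counts with *cco-1* RNAi, against 12332, 12129.5 and 10966 with *his-3* RNAi. The groups were far apart (log2 fold change −7.77, standard error 0.146, adjusted p = 8.06e-17), and EV, with 16070.4 ± 187 (SD, n = 3), was on the side of *his-3* RNAi. The collagen genes *col-60* and *col-88*, the astacin protease gene *nas-22*, and *F53H4.2*, *F54F7.3*, *C35B1.4* and *Y47D7A.15* shared this pattern, with log2 fold changes of *cco-1* RNAi over EV between −8.48 for *col-88* and −7.90 for *nas-22*. *B0507.8*, a gene with no name of its own, had 4.09, 0 and 10.2 normalized counts with *cco-1* RNAi, against 2026, 2025 and 1935 with *his-3* RNAi (log2 fold change −8.74, standard error 0.175, adjusted p = 1.56e-16). EV, with 14.5, 14.4 and 13.3, was here on the side of *cco-1* RNAi, and the difference came with *his-3* RNAi, which was 7.14 above EV on the log2 scale. *F26F2.1*, *pals-3* and *pals-4* shared that second pattern, at 7.46, 5.37 and 6.51 above EV with *his-3* RNAi.

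The mitochondrial genes were higher with *cco-1* RNAi almost throughout. Of 17 tested chaperones, proteases and regulators of the mitochondrial unfolded protein response, 11 were higher and 2 lower, with a median log2 fold change of 0.79. *hsp-6*, the gene of the mitochondrial HSP70 that serves as the usual reporter of this response, had 39311, 39763 and 39470.4 normalized counts with *cco-1* RNAi, against 14692, 14850.3 and 15032 with *his-3* RNAi. All *cco-1* RNAi libraries lay above all *his-3* RNAi libraries (log2 fold change 1.41, standard error 0.0476, adjusted p = 9.02e-14), and the 16139 ± 669 of EV (SD, n = 3) was near the *his-3* RNAi level. *dnj-10*, which encodes a mitochondrial DNAJ co-chaperone, had 5137, 4995 and 4977 normalized counts with *cco-1* RNAi, against 1661, 1654 and 1634 with *his-3* RNAi (log2 fold change 1.61, standard error 0.0422, adjusted p = 4e-15). The groups were again separate, and EV, with 2005 ± 81.9 (SD, n = 3), was between them and nearer to *his-3* RNAi.

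The protease gene *spg-7*, whose product degrades damaged proteins of the inner membrane, had 8548, 9154 and 8677 normalized counts with *cco-1* RNAi, against 3298, 3051 and 3428 with *his-3* RNAi (log2 fold change 1.43, standard error 0.0528, adjusted p = 2.96e-13). Other chaperone and protease genes differed less. *hsp-60*, the mitochondrial chaperonin, had a log2 fold change of 0.90 (adjusted p = 8.44e-11), the protease gene *lonp-1* of 0.97 (adjusted p = 1.55e-12) and *ymel-1* of 0.92 (adjusted p = 3.59e-12). The regulators did not move as 1 group. *atfs-1*, the gene of the transcription factor that drives the response, was higher at 0.51 (adjusted p = 1.08e-08), whereas *dve-1*, the gene of a homeodomain protein that acts beside it, was lower at −1.11 (adjusted p = 5.18e-12). *jmjd-1.2*, a histone demethylase gene linked to this response, had −0.05 (adjusted p = 0.274), with a 95% interval of −0.14 to 0.04, and it passed the threshold when scaled by library size only (−0.18, adjusted p = 0.00199) or by *act-1* and *pmp-3* (−0.21, adjusted p = 0.0218).

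All 17 tested genes of the mitochondrial import machinery were higher, with log2 fold changes from 0.61 to 1.70 and a median of 1.13. *timm-17B.1*, a channel subunit of the inner membrane, had 11035, 10263 and 10456 normalized counts with *cco-1* RNAi, against 3033, 3487 and 3247 with *his-3* RNAi (log2 fold change 1.70, standard error 0.0534, adjusted p = 3.58e-14). *mppa-1*, a subunit of the peptidase that removes targeting sequences, had 4528, 4627 and 4344 normalized counts with *cco-1* RNAi, against 1504, 1423 and 1451 with *his-3* RNAi (log2 fold change 1.62, standard error 0.0434, adjusted p = 4.94e-15). EV was between the groups for both genes, at 4055 ± 127 for *timm-17B.1* and 2348 ± 57.5 for *mppa-1* (SD, n = 3). *tomm-70*, a receptor of the outer membrane, had a log2 fold change of 1.39 (adjusted p = 2.33e-14).

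The nuclear genes of the respiratory chain followed with smaller differences. Of 33 tested genes of complex I, 32 were higher (median 0.72), and *nduf-2.2* was the 1 that was lower (−0.12, adjusted p = 0.025). The call of *nduf-2.2* was lost with DESeq2 (adjusted p = 0.222) and without library 1 of *cco-1* RNAi (0.104), library 2 of *cco-1* RNAi (0.0503) or library 1 of *his-3* RNAi (0.114). All 5 genes of complex II were higher (median 0.71). Of 9 genes listed with complex III, 7 were higher and 1 was lower (median 0.78). The lower one was *cyc-2.2*, a gene of cytochrome c, which is listed here but is not a subunit of the complex. Of 12 genes of complex V, 11 were higher (median 0.69). In complex IV, the complex of the RNAi target, 6 of 7 tested genes were higher (median 0.61) and the remaining gene was *cox-5B* itself. *cox-6C*, another subunit gene of the complex, had 5667, 5668 and 5473 normalized counts with *cco-1* RNAi, against 3202, 3345 and 3277 with *his-3* RNAi (log2 fold change 0.77, standard error 0.0482, adjusted p = 3.11e-10). EV, with 5385 ± 351 (SD, n = 3), was close to the *cco-1* RNAi libraries, so that for this gene the *his-3* RNAi libraries were the ones apart, at −0.72 relative to EV.

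The levels in EV differed between these groups of mitochondrial genes. The 33 genes of complex I had a median of −0.42 under *his-3* RNAi relative to EV, against 0.31 under *cco-1* RNAi. Complexes III, IV and V were likewise further from EV under *his-3* RNAi, at −0.38, −0.43 and −0.41, against 0.33, 0.16 and 0.25 under *cco-1* RNAi. Complex II, import and the chaperone list went the other way, at 0.46, 0.71 and 0.57 under *cco-1* RNAi. Their medians under *his-3* RNAi were −0.27, −0.41 and −0.12. Single genes could depart from their list, as *nduv-2* did. For complex I, *nduv-2*, of the part that takes up electrons from NADH, had 9872, 9632 and 9783 normalized counts with *cco-1* RNAi, against 5465, 5512 and 5497 with *his-3* RNAi (log2 fold change 0.83, standard error 0.0419, adjusted p = 1.95e-11), with 6983 ± 207 in EV (SD, n = 3). The EV libraries thus lay between the treatments, and the direct difference held a part from each side, 0.48 for *cco-1* RNAi over EV and −0.35 for *his-3* RNAi over EV. For *hsp-6*, nearly all of the difference was on the *cco-1* RNAi side, at 1.29 over EV, against −0.12 for *his-3* RNAi over EV. In the plot of mitochondrial and glycolytic genes by library, both patterns can be seen.

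**Figure D2:**
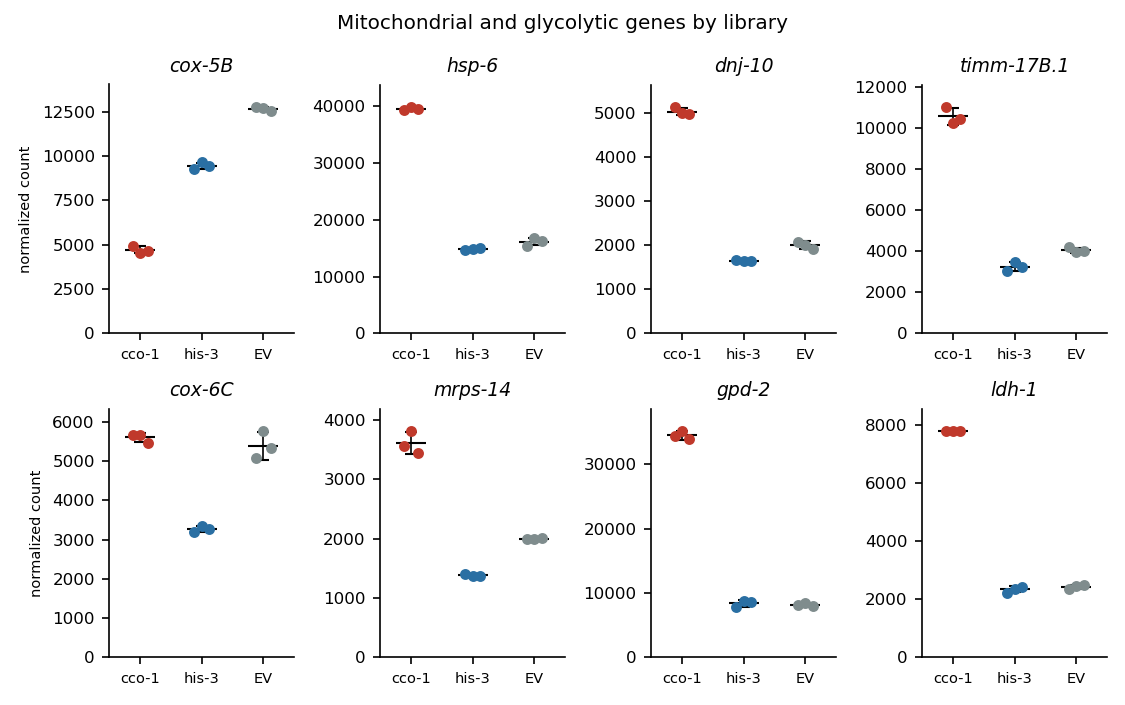
Normalized counts (linear axis from 0) of 8 mitochondrial and glycolytic genes in each library (points), with the mean and SD of each group of 3 libraries (bars). *hsp-6*, *dnj-10*, *gpd-2* and *ldh-1* are high with *cco-1* RNAi alone, *cox-6C* is low with *his-3* RNAi alone, and *cox-5B* is lowest with *cco-1* RNAi.

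Proteins made inside mitochondria need their own ribosome. All 69 tested genes of the mitochondrial ribosome were higher with *cco-1* RNAi, with log2 fold changes from 0.21 to 1.38 and a median of 0.61. Relative to EV, their median was −0.43 under *his-3* RNAi, against 0.17 under *cco-1* RNAi. *mrps-14*, of the small subunit, had 3567, 3809.7 and 3444 normalized counts with *cco-1* RNAi, against 1412, 1371 and 1374 with *his-3* RNAi (log2 fold change 1.38, standard error 0.0446, adjusted p = 5.14e-14), and *mrpl-37*, of the large subunit, had a log2 fold change of 1.07 (adjusted p = 2.32e-12). The cytosolic ribosome differed much less: 20 of 82 tested genes were higher and 3 lower, and their median of 0.07 turned to −0.05 when scaled by library size only and to −0.09 when scaled by *act-1* and *pmp-3*.

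The mRNAs of the mitochondrial genome itself were less even between libraries. Of 11 tested, 9 were higher with *cco-1* RNAi, at a median of 0.55, and *COX2* was lower at −0.89 (adjusted p = 0.00261). *CYTB*, of complex III, had 62098, 58494 and 73312 normalized counts with *cco-1* RNAi, against 47684, 39591 and 41095 with *his-3* RNAi (log2 fold change 0.59, standard error 0.0823, adjusted p = 6.92e-06), without overlap. *ND2*, of complex I, had 1617, 1787 and 832 normalized counts with *cco-1* RNAi, against 535, 743 and 598 with *his-3* RNAi. Library 3 of *cco-1* RNAi was close to the highest *his-3* RNAi library, and the standard error of *ND2* was 0.193 on a log2 fold change of 1.18 (adjusted p = 4.15e-05). For *ATP6*, of complex V, the groups overlapped, and the log2 fold change was −0.29 with a 95% interval of −1.13 to 0.54. Without library 3 of *cco-1* RNAi, *ATP6* was lower at −0.91 (adjusted p = 0.0477). Libraries of polyadenylated RNA do not capture all mitochondrial transcripts evenly, since their tails are short.

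Genes of central carbon metabolism were higher as well. Of 23 tested genes of glycolysis and gluconeogenesis, 20 were higher and 3 lower, with a median of 1.04, and of 25 genes of the TCA cycle 24 were higher and none lower, with a median of 0.66. *gpd-2*, a glyceraldehyde-3-phosphate dehydrogenase gene, had 34419.8, 35111 and 33817 normalized counts with *cco-1* RNAi, against 7773, 8827 and 8629 with *his-3* RNAi (log2 fold change 2.03, standard error 0.0549, adjusted p = 5.56e-15). *ldh-1*, the lactate dehydrogenase gene, whose product regenerates NAD+ without oxygen, had 7774, 7778 and 7775 normalized counts with *cco-1* RNAi, against 2222, 2366 and 2435 with *his-3* RNAi (log2 fold change 1.73, standard error 0.0446, adjusted p = 3.25e-15). Both genes were separate between treatments, and EV, with 8143 ± 244 for *gpd-2* and 2424 ± 77.1 for *ldh-1* (SD, n = 3), was at the *his-3* RNAi level. The 3 lower genes were *gpd-1* (−0.32) and *gpd-4* (−0.24), which encode the same enzyme as *gpd-2*, and the phosphofructokinase gene *pfk-1.2* (−0.27). In the TCA cycle, *aco-2*, the mitochondrial aconitase gene, had 50793, 53242 and 49135 normalized counts with *cco-1* RNAi, against 23782, 24364 and 24500.5 with *his-3* RNAi (log2 fold change 1.08, standard error 0.049, adjusted p = 4.9e-12).

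The detoxification families held many of the largest differences. Animals clear foreign compounds by oxidation with cytochrome P450 enzymes, followed by coupling to a sugar by UDP-glucuronosyltransferases or to glutathione by glutathione S-transferases. Of 68 tested P450 genes, 46 were higher and 12 lower, 20 of them higher by at least 4-fold and 0 lower by that much (median 0.77). Of 65 UDP-glucuronosyltransferase genes, 48 were higher and 10 lower (median 0.88). Of 45 glutathione S-transferase genes, 31 were higher and 7 lower (median 0.80). At the 4-fold threshold, 29.4% of P450 genes were higher, where 1.87% of all genes were.

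*ugt-62*, the most abundant of the glucuronosyltransferase genes named here, had 71568, 69254 and 68853 normalized counts with *cco-1* RNAi, against 4152, 3559 and 4048 with *his-3* RNAi (log2 fold change 4.16, standard error 0.0633, adjusted p = 9.43e-18). *ugt-61* had 16823, 16638 and 15905 normalized counts with *cco-1* RNAi, against 887, 841 and 928 with *his-3* RNAi (log2 fold change 4.22, standard error 0.0544, adjusted p = 2.27e-18). The groups were far apart in both, yet EV lay between them, at 6941 ± 25.7 for *ugt-62* and 5429 ± 151 for *ugt-61* (SD, n = 3), so that *ugt-61* was 1.60 above EV with *cco-1* RNAi and at −2.62 relative to EV with *his-3* RNAi. *ugt-19* had 16717, 17300.3 and 16781 normalized counts with *cco-1* RNAi, against 608, 545 and 613 with *his-3* RNAi (log2 fold change 4.85, standard error 0.0618, adjusted p = 2.27e-18), and here EV, with 427 ± 33.6 (SD, n = 3), was below both treatments. *cyp-33C8* had 10713, 10658 and 10245 normalized counts with *cco-1* RNAi, against 512, 510.5 and 537 with *his-3* RNAi (log2 fold change 4.34, standard error 0.0509, adjusted p = 1.73e-18). The *his-3* RNAi libraries were again above the 140.4 ± 11.3 of EV (SD, n = 3), though far below the *cco-1* RNAi libraries.

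The glutathione S-transferase genes with the firmest differences were *gst-6*, *gst-7* and *gsto-1*. *gst-6* had 5560.0, 5604 and 5478 normalized counts with *cco-1* RNAi, against 907, 809 and 812 with *his-3* RNAi (log2 fold change 2.72, standard error 0.048, adjusted p = 4.41e-17), and *gst-7* had 9197, 9175 and 8814 normalized counts with *cco-1* RNAi, against 1411, 1192 and 1458 with *his-3* RNAi (log2 fold change 2.74, standard error 0.0632, adjusted p = 8.23e-16). Both were separate by group. *gst-4*, the usual reporter of the oxidative stress factor SKN-1, was chosen here after its values were seen. It had 1112, 1229 and 1186 normalized counts with *cco-1* RNAi, against 352, 285 and 358 with *his-3* RNAi (log2 fold change 1.83, standard error 0.0725, adjusted p = 7.87e-13), yet both groups were below the 2017 ± 58.4 of EV (SD, n = 3). *gst-10* likewise was far below EV in both treatments, at −2.67 under *cco-1* RNAi and −3.17 under *his-3* RNAi relative to EV, and its direct log2 fold change was 0.49 (adjusted p = 6.72e-07).

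Markers of the intestine, the tissue in which many of these enzymes are made, differed in the same direction. Of 6 tested intestinal markers, 5 were higher with *cco-1* RNAi, and their summed normalized counts were 202338 to 205709 with *cco-1* RNAi, 66216 to 81096 with *his-3* RNAi and 99978 to 110263 in EV. *vha-6*, a subunit gene of the intestinal proton pump, had 34174, 34909 and 33196 normalized counts with *cco-1* RNAi, against 7093, 7289 and 7642 with *his-3* RNAi (log2 fold change 2.22, standard error 0.0511, adjusted p = 8.31e-16), and *ges-1*, the gut esterase gene, had 2397, 2398 and 2305 normalized counts with *cco-1* RNAi, against 738, 743 and 728 with *his-3* RNAi (log2 fold change 1.68, standard error 0.0428, adjusted p = 2.72e-15). *elt-2*, the transcription factor gene that defines the intestine, had 705, 743 and 679 normalized counts with *cco-1* RNAi, against 606, 687 and 651 with *his-3* RNAi. The groups of *elt-2* overlapped, and its log2 fold change was 0.13 with a 95% interval of 0.00 to 0.26 (adjusted p = 0.066). *elt-2* passed the threshold with DESeq2 (0.17, adjusted p = 0.0347) and without library 2 of *his-3* RNAi (0.18, adjusted p = 0.0167). In RNA of whole worms, fewer cells of a type and less RNA per cell cannot be told apart, and the part of the intestinal markers in the mitochondrial, metabolic and detoxification differences was not tested.

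The core histone genes differed in the other direction. Of 36 tested, 33 were lower with *cco-1* RNAi, 27 of them by at least 4-fold, and 1 was higher, with a median of −3.97. With the filter on the 6 libraries, 8 of the 36 were left out, all of them 4-fold lower, and the median was −3.40. The nucleosome is built from the histones H2A, H2B, H3 and H4, whose replication-dependent genes lie in clusters and are transcribed in dividing cells. mRNAs of such genes usually end in a stem-loop and not in a poly(A) tail, and the libraries were made from polyadenylated RNA, so that the counts follow the polyadenylated part of histone mRNA.

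The 4 classes were alike. All 8 tested H2A genes, all 7 H2B genes, all 8 replication-type H3 genes and all 8 H4 genes were lower, with median log2 fold changes of −3.93 for H2A, −3.16 for H2B, −4.32 for H3 and −4.11 for H4. The summed normalized counts of the H3 genes were 105 ± 13.4 with *cco-1* RNAi, 2734 ± 203 with *his-3* RNAi and 361 ± 15.4 in EV (SD, n = 3 each). Those of H2A were 2069 ± 54.9 with *cco-1* RNAi, 6246 ± 347 with *his-3* RNAi and 3102 ± 97.6 in EV. The sums of H2B were 1076 ± 8.09 with *cco-1* RNAi, 4118 ± 98.6 with *his-3* RNAi and 1388 ± 50.6 in EV, and those of H4 were 1719 ± 45.7 with *cco-1* RNAi, 3587 ± 37.8 with *his-3* RNAi and 2434 ± 88.2 in EV. In each class the sum of EV thus lay between the treatments, below *his-3* RNAi and above *cco-1* RNAi.

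*his-4*, an H2B gene next to *his-3*, had 7.16, 13.98 and 11.4 normalized counts with *cco-1* RNAi, against 184, 173 and 208 with *his-3* RNAi (log2 fold change −4.10, standard error 0.194, adjusted p = 8.41e-12). *his-8*, also an H2B gene, had 1.02, 2.995 and 1.14 normalized counts with *cco-1* RNAi, against 134, 199 and 182 with *his-3* RNAi (log2 fold change −6.52, standard error 0.318, adjusted p = 1.22e-11). All *his-3* RNAi libraries of both genes were above all others, and EV had 47.5 ± 7.19 for *his-4* and 23.5 ± 2.5 for *his-8* (SD, n = 3). The genes with the highest levels, *his-35*, *his-37* and *his-41*, differed least within their classes. *his-37*, of H4, had 1625, 1701 and 1608 normalized counts with *cco-1* RNAi, against 2025, 1998 and 2063 with *his-3* RNAi (log2 fold change −0.30, standard error 0.0447, adjusted p = 1.46e-05). *his-35*, of H2A, had a log2 fold change of −1.27 (adjusted p = 5.6e-13), and *his-41*, of H2B, of −1.61 (adjusted p = 1e-14). The near-identical members of a class share reads that were left uncounted, so that the value of a single member is less certain than the pattern of its class.

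The replacement histone genes did not follow. Of 5 tested genes of the H3.3 type, which is laid down outside replication, *his-71* was higher at 0.30 (adjusted p = 0.000622), *his-70* and *his-72* were lower at −0.63 and −0.42, and 2 did not pass. The call of *his-71* was lost when the libraries were scaled by *act-1* and *pmp-3* (adjusted p = 0.108). The summed counts of this class were 7898 ± 103.4 with *cco-1* RNAi, 9189 ± 611 with *his-3* RNAi and 8014 ± 180 in EV (SD, n = 3 each). Among 12 tested genes of linker histones and other variants, 9 were lower and 2 higher. *hil-3*, a linker histone gene, had 258, 214 and 221 normalized counts with *cco-1* RNAi, against 1024, 1254 and 1021 with *his-3* RNAi (log2 fold change −2.25, standard error 0.0912, adjusted p = 1.04e-12), and *his-24*, the main H1 gene, had 358, 414 and 402 normalized counts with *cco-1* RNAi, against 810.4, 1011 and 885 with *his-3* RNAi (log2 fold change −1.2, standard error 0.0907, adjusted p = 3.8e-09). EV was below the *his-3* RNAi level for *hil-3*, with 606 ± 14.9, and near or above it for *his-24*, with 1047 ± 100.4 (SD, n = 3).

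**Figure D3:**
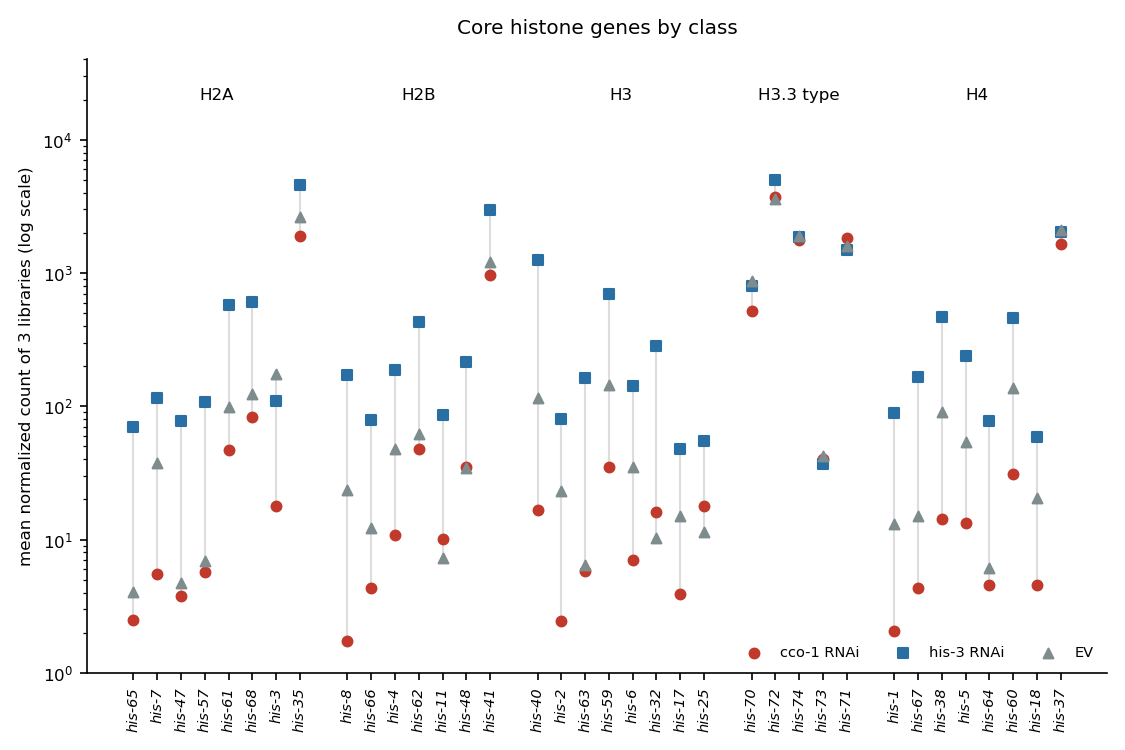
Mean normalized count of 3 libraries (log scale) for each of the 36 tested core histone genes, grouped by class, with *cco-1* RNAi as circles, *his-3* RNAi as squares and EV as triangles. In H2A, H2B, H3 and H4 every circle lies below its square, whereas in the H3.3 type the groups lie close together.

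Genes of chromosome replication had smaller differences. Of 38 tested genes of DNA replication and the cell cycle, 18 were lower and 5 higher, with a median of −0.10 beside −0.045 for all genes. The B-type cyclin gene *cyb-1* had a log2 fold change of −0.42 (adjusted p = 1.86e-06) and *cyb-3* of −0.38 (adjusted p = 6.97e-06). Of 28 chromatin remodeler genes, 15 were higher and 2 lower, with a median of 0.16, which was 0.038 when scaled by library size only and 0.0050 when scaled by *act-1* and *pmp-3*. Relative to the median of all genes it was 0.21 in the fit used here and under both scalings. The largest difference among the remodelers was that of *chd-3*, an ATPase gene of the NuRD family, which had 3791, 3884 and 3851 normalized counts with *cco-1* RNAi, against 1849, 1958 and 1957 with *his-3* RNAi (log2 fold change 1.0, standard error 0.0431, adjusted p = 2.39e-12). *isw-1*, an ATPase gene of the ISWI family, had 4628, 4891 and 4553 normalized counts with *cco-1* RNAi, against 3641, 3332 and 3608 with *his-3* RNAi (log2 fold change 0.41, standard error 0.047, adjusted p = 7.39e-07). Its 2 groups did not overlap, and both were above the 3069.7 ± 101 of EV (SD, n = 3).

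Of the gene lists examined, the numbered cuticle collagens held the most genes that were 4-fold lower. The cuticle is rebuilt at each molt from collagens that are each transcribed in a short window of the molting cycle. Of 131 tested numbered collagen genes, 89 were lower and 29 higher with *cco-1* RNAi, 70 of them lower by at least 4-fold and 8 higher by at least 4-fold, with a median of −2.43. Thus 53.4% of these genes were 4-fold lower, where 7.2% of all genes were. Of 20 collagen genes named for body shape, 14 were lower and 4 higher, with a median of −2.70.

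*col-129* had 67.5, 65.9 and 89.7 normalized counts with *cco-1* RNAi, against 6763, 6339 and 5745 with *his-3* RNAi (log2 fold change −6.41, standard error 0.0932, adjusted p = 6.26e-18). *dpy-13*, a body-shape collagen gene whose mutants are short, had 2105, 1157 and 1628 normalized counts with *cco-1* RNAi, against 23129, 27942 and 24954 with *his-3* RNAi (log2 fold change −3.96, standard error 0.148, adjusted p = 3.57e-13), and *rol-6*, whose mutants roll, had 1621, 1091 and 1371 normalized counts with *cco-1* RNAi, against 8718, 9415 and 9125 with *his-3* RNAi (log2 fold change −2.74, standard error 0.0939, adjusted p = 1.13e-13). In all of these genes EV was on the side of *his-3* RNAi, with 7992 ± 273 for *col-129*, 35944 ± 1001 for *dpy-13* and 9229.9 ± 119.3 for *rol-6* (SD, n = 3). Some collagens stood on the other side. The 8 that were at least 4-fold higher, named here after their values were seen, were *col-176*, *col-158*, *col-147*, *col-98*, *col-103*, *col-146*, *col-42* and *col-142*, with log2 fold changes between 2.22 for *col-142* and 3.70 for *col-176*. Collagens are made in the epidermis, and of 7 epidermal markers 4 were higher and 3 lower, with a median of 0.40. Their summed counts were 13341 to 14560 with *cco-1* RNAi, 18051 to 20166 with *his-3* RNAi and 16485 to 16663 in EV. These sums include the collagen gene *rol-6*, whose own difference between the treatments was larger than that of the sums. The lower sums with *cco-1* RNAi were thus those of *rol-6* and do not describe the epidermal markers as a group.

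Molting genes were lower in part. Of 30 tested, 19 were lower and 7 higher, with a median of −0.69. *wrt-4*, a hedgehog-related gene, had 216, 75.9 and 157.8 normalized counts with *cco-1* RNAi, against 12943, 13258 and 12528 with *his-3* RNAi (log2 fold change −6.43, standard error 0.171, adjusted p = 4.7e-15). *nas-36*, a protease gene needed to shed the old cuticle, had 175.99, 125 and 141 normalized counts with *cco-1* RNAi, against 1704, 1459.7 and 1509.7 with *his-3* RNAi (log2 fold change −3.40, standard error 0.0921, adjusted p = 5.83e-15). The groups were separate for both, with EV at 19560.4 ± 135 for *wrt-4* and 1780.5 ± 58.5 for *nas-36* (SD, n = 3). Higher genes included *fbn-1*, of a fibrillin-like matrix protein, at 2.33 (adjusted p = 4.48e-12), and *nhr-23*, a nuclear receptor gene that drives molting, at 0.43 (adjusted p = 3.93e-08). *lin-42*, the worm relative of the clock gene period, whose level cycles with the molts, was lower at −1.43 (adjusted p = 1.52e-09).

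Genes of the adult cuticle and vulva stage were lower in 6 of 7 cases, and their summed normalized counts were 10704 to 13170 with *cco-1* RNAi, 44134 to 51838 with *his-3* RNAi and 66848 to 73721 in EV. This list includes the yolk gene *vit-2*, the member that was not lower, so that its sums also hold yolk mRNA. The median of the list was −2.81, and −4.33 in the fit without sperm, histone and vitellogenin genes. *col-19*, the usual marker of the adult cuticle, had 4.09, 40.9 and 41.998 normalized counts with *cco-1* RNAi, against 2829, 2749 and 2292 with *his-3* RNAi (log2 fold change −6.51, standard error 0.2, adjusted p = 2.79e-14). All *cco-1* RNAi libraries were far below, and library 1 was the lowest of them. *col-62*, another adult collagen gene, had 2.05, 9.98 and 5.68 normalized counts with *cco-1* RNAi, against 542, 405 and 377 with *his-3* RNAi (log2 fold change −6.18, standard error 0.271, adjusted p = 2.93e-12), again with the lowest value in library 1 of *cco-1* RNAi. Of 9 heterochronic genes, which set the order of larval stages, 5 were higher and 2 lower. *hbl-1*, an early-stage transcription factor gene, had 781, 745 and 769.6 normalized counts with *cco-1* RNAi, against 461, 521 and 513 with *his-3* RNAi (log2 fold change 0.62, standard error 0.0755, adjusted p = 1.64e-06), and *lin-41*, a regulator that falls before adulthood, had 2919, 2942 and 2867 normalized counts with *cco-1* RNAi, against 2228, 2288 and 2283 with *his-3* RNAi (log2 fold change 0.36, standard error 0.0423, adjusted p = 1.04e-06). All worms were labelled L4. A difference in progress through that stage and a change in these genes at equal progress cannot be told apart in these data, and the part of stage in the other gene groups was not tested.

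**Figure D4:**
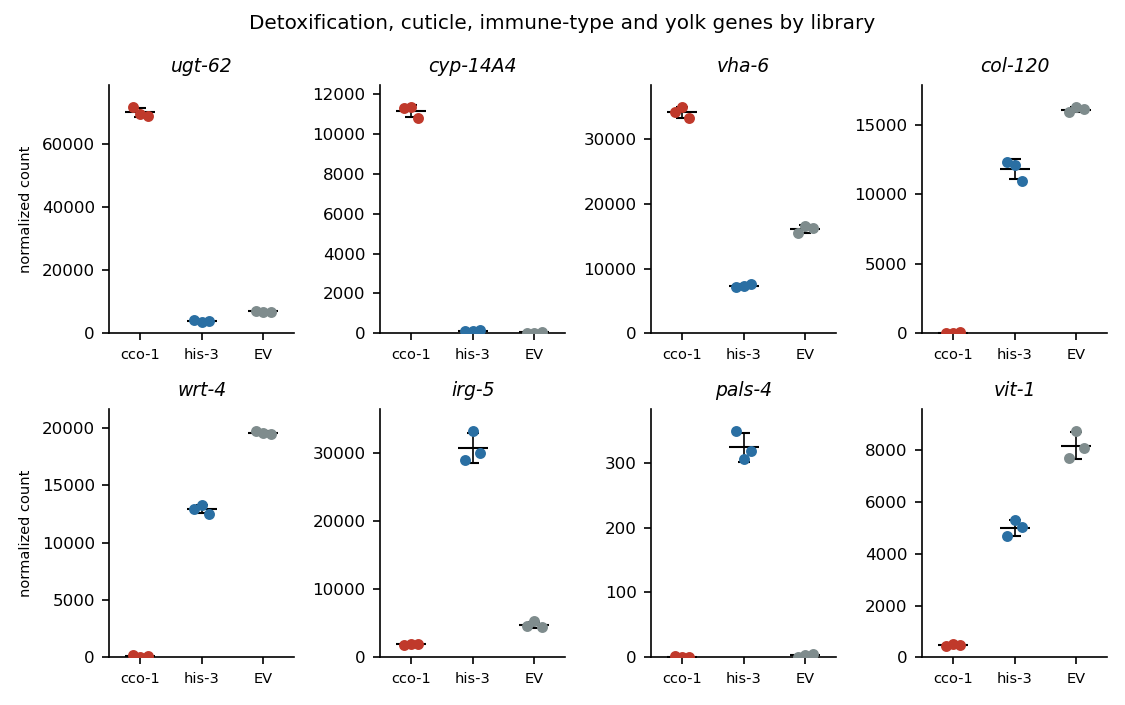
Normalized counts (linear axis from 0) of 8 detoxification, gut, cuticle, defence and yolk genes in each library (points), with the mean and SD of each group of 3 libraries (bars). *ugt-62* and *cyp-14A4* are high with *cco-1* RNAi alone, *irg-5* and *pals-4* with *his-3* RNAi alone, and *col-120*, *wrt-4* and *vit-1* are low with *cco-1* RNAi.

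The families of defence genes divided between the treatments. The *pals* genes, a nematode family that reacts to infection by microsporidia and viruses, were lower with *cco-1* RNAi in 17 of 26 cases and higher in 8, with 12 lower by at least 4-fold and a median of −1.28. With the filter on the 6 libraries, under which 4 of the 26 were left out, all of them 4-fold lower, the median was −0.76. *pals-14* had 57.3, 71.9 and 64.7 normalized counts with *cco-1* RNAi, against 755, 728 and 732 with *his-3* RNAi (log2 fold change −3.51, standard error 0.091, adjusted p = 3.44e-15), and *pals-39* had 30.7, 30.9 and 30.6 normalized counts with *cco-1* RNAi, against 567, 651 and 600.5 with *his-3* RNAi (log2 fold change −4.29, standard error 0.114, adjusted p = 4.4e-15). The high values were those of *his-3* RNAi, since EV had 11.5 ± 2.34 for *pals-14* and 34.6 ± 5.29 for *pals-39* (SD, n = 3). *pals-4* had 3 reads over the *cco-1* RNAi libraries and 1040 over the *his-3* RNAi libraries, so that *his-3* RNAi was 308 times higher (95% counting interval 105 to 1498). *pals-6* was raised in both treatments relative to EV, by 3.62 on the log2 scale under *cco-1* RNAi and 4.69 under *his-3* RNAi, and its direct log2 fold change was −1.07 (adjusted p = 1.64e-10).

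Of 18 genes of the *dod* and *irg* families, which respond to insulin signalling or infection, 14 were lower and 2 higher, with a median of −1.62. *irg-5*, a pathogen response gene of the intestine, had 1857, 1897 and 1956 normalized counts with *cco-1* RNAi, against 29013, 33188 and 29953 with *his-3* RNAi (log2 fold change −4.01, standard error 0.0725, adjusted p = 5.62e-17). Its groups were apart, with EV between them at 4801 ± 429 (SD, n = 3). *dod-23* had 8.19, 6.99 and 5.68 normalized counts with *cco-1* RNAi, against 687, 607 and 633 with *his-3* RNAi (log2 fold change −6.50, standard error 0.152, adjusted p = 9.77e-16). C-type lectins, sugar-binding proteins that are often raised by bacteria, were mixed: of 138 tested, 70 were lower and 44 higher, with 26 at least 4-fold lower and 18 at least 4-fold higher, and a median of −0.41. *clec-60* had 36.8, 54.9 and 45.4 normalized counts with *cco-1* RNAi, against 1510.3, 1381 and 1545 with *his-3* RNAi (log2 fold change −5.01, standard error 0.0996, adjusted p = 1.52e-16), while *clec-4* had 3658, 3572 and 3255 normalized counts with *cco-1* RNAi, against 805, 831 and 805 with *his-3* RNAi (log2 fold change 2.1, standard error 0.0515, adjusted p = 1.76e-15). These 2 lectins thus differed in opposite directions. *clec-60* was high with *his-3* RNAi alone, with 31.2 ± 2.5 in EV, while *clec-4* was above the 136 ± 8.01 of EV in both treatments (SD, n = 3).

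Lysozymes, saposins and antimicrobial peptides, which kill microbes directly, leaned the other way, with 41 of 72 genes higher and 21 lower (median 0.65). *lys-2*, a lysozyme gene, had 19721, 18972 and 18611 normalized counts with *cco-1* RNAi, against 5055, 4367 and 4964 with *his-3* RNAi (log2 fold change 1.99, standard error 0.0556, adjusted p = 8.48e-15), and *spp-23*, a saposin gene, had 1403, 1373 and 1355 normalized counts with *cco-1* RNAi, against 242, 269.5 and 276 with *his-3* RNAi (log2 fold change 2.39, standard error 0.0641, adjusted p = 5.12e-15). *ilys-5*, an invertebrate-type lysozyme gene, had 1427, 1695 and 1549 normalized counts with *cco-1* RNAi, against 664, 759 and 699.6 with *his-3* RNAi (log2 fold change 1.14, standard error 0.064, adjusted p = 8.09e-11). Its groups did not overlap, but both were far below the 11435 ± 160.4 of EV (SD, n = 3).

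Germline genes had a median close to that of all genes, while those of sperm, oocyte and yolk were mostly lower. Of 33 tested genes of P granules and meiosis, 11 were lower and 2 higher, with a median of −0.09 beside −0.045 for all genes, and the summed counts of 10 germ cell markers were 46068 to 46968 with *cco-1* RNAi, 48514 to 50942 with *his-3* RNAi and 54331 to 55267 in EV. Of 86 genes of major sperm proteins and other sperm products, 76 were lower and 1 higher, with a median of −0.64 and 0 past 4-fold. Sperm are made during L4 in the hermaphrodite. *msp-45*, of the protein that drives sperm crawling, had 1421, 1205 and 1213 normalized counts with *cco-1* RNAi, against 2829, 2873 and 2681 with *his-3* RNAi (log2 fold change −1.13, standard error 0.0583, adjusted p = 2.76e-11). *gsp-3*, a sperm phosphatase gene, had 2609, 2494 and 2471 normalized counts with *cco-1* RNAi, against 3428, 3524 and 3596 with *his-3* RNAi (log2 fold change −0.48, standard error 0.0414, adjusted p = 2.38e-08). The groups were separate in both, and EV was near *his-3* RNAi, with 2594 ± 89.4 for *msp-45* and 3440.4 ± 72.9 for *gsp-3* (SD, n = 3). Members of the sperm protein family are near-identical, so that their single values are uncertain.

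Of 25 genes of the oocyte, eggshell and yolk uptake, 23 were lower and 1 higher, with a median of −0.46. *cbd-1*, of an eggshell protein, had 4257, 3689.9 and 4139.7 normalized counts with *cco-1* RNAi, against 6176, 6205 and 6180.4 with *his-3* RNAi (log2 fold change −0.62, standard error 0.05, adjusted p = 9.68e-09). *perm-2* and *perm-4*, of the permeability barrier of the egg, differed more, at −3.1 and −2.78. *perm-2* had 212, 209 and 211 normalized counts with *cco-1* RNAi, against 1684, 2082 and 1648 with *his-3* RNAi, and the groups did not overlap.

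Vitellogenins are the yolk proteins that the intestine makes from the end of L4 on. Of 6 tested, 5 were lower with *cco-1* RNAi, 4 of them by at least 4-fold. *vit-6* had 2024, 2764 and 2569 normalized counts with *cco-1* RNAi, against 13343, 14710.5 and 12969.7 with *his-3* RNAi (log2 fold change −2.48, standard error 0.0966, adjusted p = 6.1e-13), and *vit-3* had 2.05, 21.96 and 38.6 normalized counts with *cco-1* RNAi, against 387, 368 and 358 with *his-3* RNAi (log2 fold change −4.18, standard error 0.241, adjusted p = 1.14e-10), with library 1 of *cco-1* RNAi the lowest. EV was higher than both treatments, at 39192 ± 3506 for *vit-6* and 7129 ± 281 for *vit-3* (SD, n = 3). *vit-2* was the exception. It had 4534, 5463 and 4691 normalized counts with *cco-1* RNAi, against 5034, 5096 and 4673 with *his-3* RNAi, with overlapping groups, a log2 fold change of −0.01 and a 95% interval of −0.17 to 0.15, whereas EV had 25324 ± 2298 (SD, n = 3).

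Genes of fat metabolism went both ways. Of 29 tested genes of fat oxidation and fasting, 13 were higher (44.8%) and 10 lower (34.5%), beside 31.8% and 36.8% of all genes. The median of −0.13 turned to 0.0076 when genes had to pass the filter in 6 libraries. *cpt-4*, a carnitine palmitoyltransferase gene for fat import into mitochondria, had 436, 417 and 403 normalized counts with *cco-1* RNAi, against 2099.6, 1942 and 2222 with *his-3* RNAi (log2 fold change −2.32, standard error 0.06, adjusted p = 3.4e-15). *acox-1.1* was higher and *acox-1.2* lower, at 0.80 and −0.95, although both encode peroxisomal acyl-CoA oxidases. *acs-2*, an acyl-CoA synthetase gene of the fasting response, had 5646, 5564 and 5816 normalized counts with *cco-1* RNAi, against 4110.3, 5092 and 5971 with *his-3* RNAi. Its groups overlapped and both were far above EV, which had 17.6, 35.3 and 15.1. The log2 fold change of *acs-2* was 0.17 with a 95% interval of −0.04 to 0.37 (adjusted p = 0.137), and it passed the threshold without library 3 of *his-3* RNAi, at 0.30 (adjusted p = 0.00651). Of 21 desaturases and elongases, 13 were higher and 8 lower. *fat-5*, a palmitate desaturase gene, had 65.5, 83.9 and 64.7 normalized counts with *cco-1* RNAi, against 505, 599.7 and 581 with *his-3* RNAi (log2 fold change −2.97, standard error 0.11, adjusted p = 3.07e-13), and *elo-5*, an elongase gene for branched-chain fatty acids, had 8751, 8899 and 8399 normalized counts with *cco-1* RNAi, against 3359.8, 3298 and 3287 with *his-3* RNAi (log2 fold change 1.39, standard error 0.0439, adjusted p = 3.83e-14).

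Nuclear hormone receptors, transcription factors that often bind lipids or foreign compounds, were higher in 120 of 210 cases and lower in 27, with a median of 0.43. *nhr-8*, a receptor gene linked to drug resistance and cholesterol balance, had 3061, 3067 and 2868 normalized counts with *cco-1* RNAi, against 699, 735 and 678 with *his-3* RNAi (log2 fold change 2.09, standard error 0.049, adjusted p = 1e-15). *nhr-115* had 1142, 1115 and 1083 normalized counts with *cco-1* RNAi, against 229, 189 and 184 with *his-3* RNAi (log2 fold change 2.47, standard error 0.0796, adjusted p = 4.92e-14). All *cco-1* RNAi libraries of both genes were above all others, and EV had 1189.5 ± 37.6 for *nhr-8* and 158.1 ± 13.6 for *nhr-115* (SD, n = 3). *nhr-6* was lower at −0.43 (adjusted p = 0.000494), with both groups above EV.

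Small heat-shock proteins hold unfolded proteins in solution, and of 10 tested genes 5 were higher and 2 lower, while their median of 0.10 turned to −0.02 when scaled by library size only and to −0.06 when scaled by *act-1* and *pmp-3*. *hsp-16.2* had 662, 555 and 800.2 normalized counts with *cco-1* RNAi, against 726, 488 and 728 with *his-3* RNAi. The groups overlapped and both were above EV, which had 44.7 ± 3.96 (SD, n = 3). The log2 fold change of *hsp-16.2* was 0.05 with a 95% interval of −0.23 to 0.33 (adjusted p = 0.748), so that a direct difference of more than 0.33 in either direction was outside the interval. *hsp-16.41*, which shares much of its sequence, was lower at −0.60 (adjusted p = 0.000238). *tts-1*, a long non-coding RNA that binds ribosomes in long-lived worms, had 3926, 4519 and 3869.5 normalized counts with *cco-1* RNAi, against 6990.4, 7608 and 7487 with *his-3* RNAi (log2 fold change −0.84, standard error 0.0753, adjusted p = 3.52e-08), with 40.9 ± 17.7 in EV (SD, n = 3). *hsp-4*, the endoplasmic reticulum HSP70 gene, had 11803, 11539 and 11722 normalized counts with *cco-1* RNAi, against 17989, 18144 and 17897 with *his-3* RNAi (log2 fold change −0.62, standard error 0.0427, adjusted p = 1.1e-09), with EV at the *his-3* RNAi level.

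Groups with medians near that of all genes were the subunits of the proteasome, of which 9 of 33 were higher and 5 lower (median 0.006, which turned to −0.12 by library size and −0.15 by *act-1* and *pmp-3*), and the muscle sarcomere, of which 18 of 40 were higher and 11 lower (median 0.09, which turned to −0.03 by library size and −0.06 by *act-1* and *pmp-3*). The 5 markers of body wall muscle had 1 higher and 1 lower gene, and the 9 neuronal markers 4 higher and 2 lower. The 6 pharyngeal markers were not near all genes, with 5 higher, 1 lower and a median of 0.53. Their summed counts were 39917 to 40558 with *cco-1* RNAi, 25228 to 27922 with *his-3* RNAi and 25727 to 27973 in EV. *pmp-3*, a reference gene for quantitative PCR, had 2083, 1984 and 2186 normalized counts with *cco-1* RNAi, against 2029, 1898 and 1996 with *his-3* RNAi, and its log2 fold change of 0.08 had a 95% interval of −0.02 to 0.17. *act-1*, the other, had 12445, 11771 and 12224 normalized counts with *cco-1* RNAi, against 9701, 12209 and 10542 with *his-3* RNAi, with overlapping groups. Its call (0.17, adjusted p = 0.0395) was lost without library 1 of *cco-1* RNAi (adjusted p = 0.107), library 3 of *cco-1* RNAi (0.0937), library 1 of *his-3* RNAi (0.182) or library 3 of *his-3* RNAi (0.118). The plot of gene lists by median leaves out the marker lists, the reference genes and the *pud* genes. In it, the import, respiratory and glycolysis lists lie above 0 and the core histone, collagen and vitellogenin lists far below. The list of linker histones and *htz-1* lies nearer to 0, at −0.27.

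**Figure D5:**
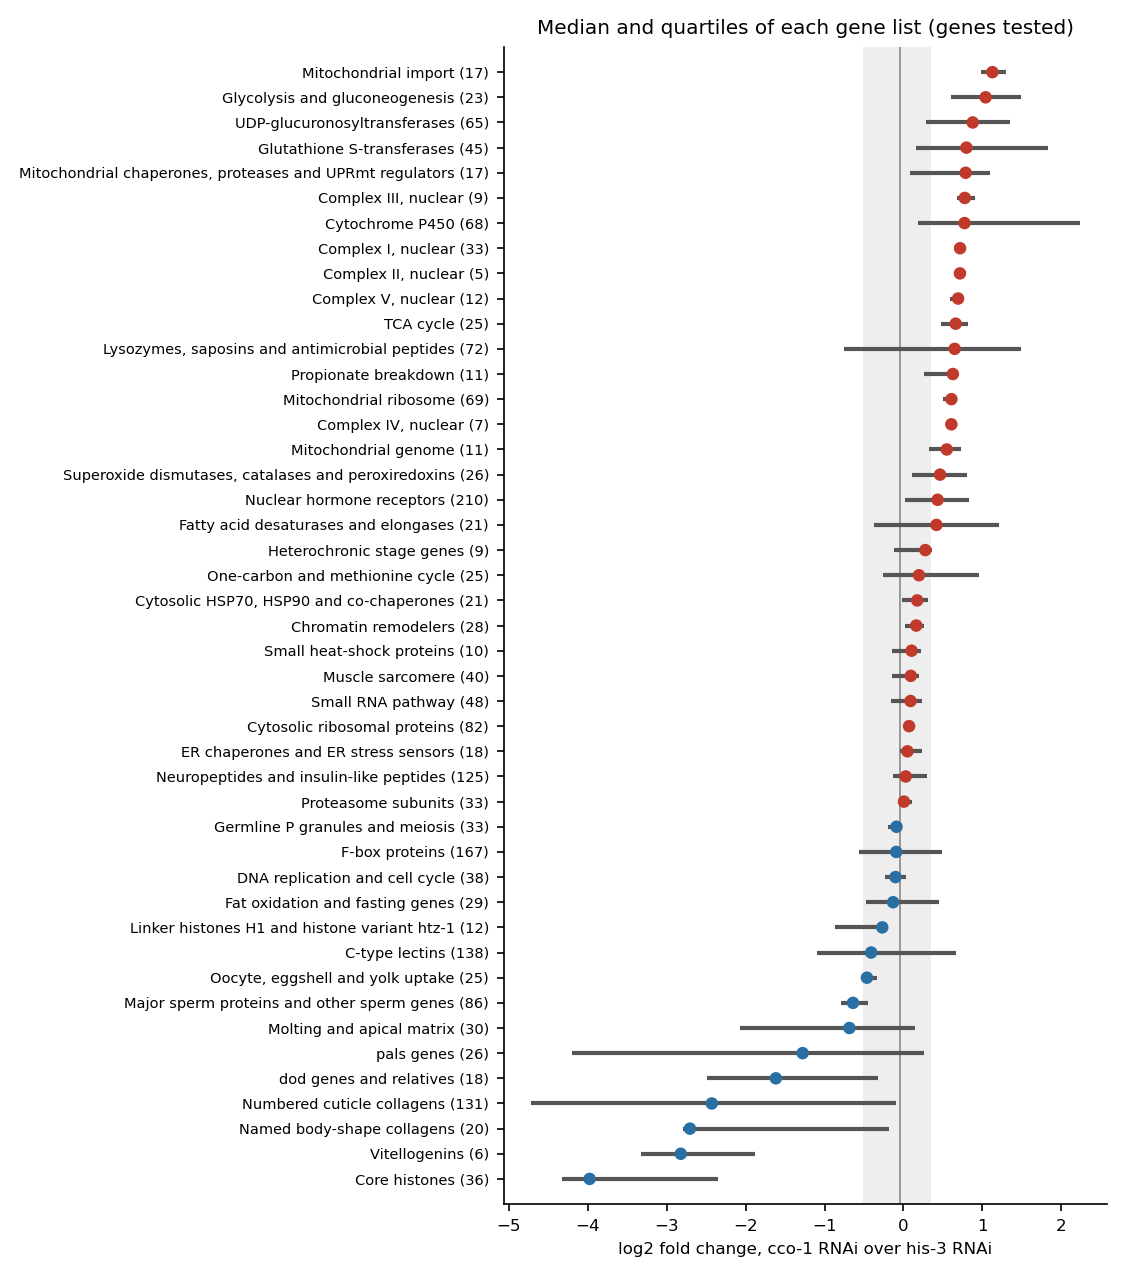
Median log2 fold change of *cco-1* RNAi over *his-3* RNAi for each gene list shown (point, number of genes tested in parentheses) with the range between its lower and upper quartile (line), and the same for all 16817 genes as a grey line and band. Marker lists, reference genes and *pud* genes are left out. Core histones have the lowest median (−3.97) and mitochondrial import the highest (1.13).

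Some genes had no reads at all with *cco-1* RNAi. Among the tested genes, 29 had 0 reads in all 3 *cco-1* RNAi libraries. Such a gene could be tested only where both *his-3* RNAi and EV had reads, so that this count depends on the side on which EV lay. *clec-242*, a C-type lectin gene, had 0 reads with *cco-1* RNAi, against 76, 53 and 58 with *his-3* RNAi and 75, 60 and 72 in EV. Taken against a floor of 3 reads over the *cco-1* RNAi group, *clec-242* was at least 55.4-fold lower with *cco-1* RNAi. The genes next to it by this measure were *E03H4.4*, at least 44.2-fold lower, *Y62H9A.3*, at least 39.7-fold lower, and *F36H12.17*, at least 30.8-fold lower. These genes were chosen after their values were seen. A gene with few reads was also *nas-22*, with 3 reads over the *cco-1* RNAi libraries and 774 over the *his-3* RNAi libraries, a ratio of 230 in favour of *his-3* RNAi (95% counting interval 78.2 to 1115).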

How the data were processed

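The authors sequenced polyadenylated RNA with a stranded kit, aligned the reads to WBcel235 using STAR 2.5.3a and counted them on genes using HTSeq, and they deposited counts of whole reads, neither normalized nor filtered. The strand setting of the counting is not given in the sources used here, so that a gene and its antisense partner may share reads. The lines for reads outside genes were left out. Genes above 5 reads in at least 4 libraries were tested using edgeR 4.0.16 in R 4.3.3 (TMM, 1 mean per group, quasi-likelihood F test, prior count 0.125). The study names limma, which served as an alternative. Standard errors were obtained as log2 fold change over root F. The floor for genes without reads is 3 reads over a group, and counting intervals cover counting error only.

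The groups came from the labels. Members, gene lists and tests were chosen with earlier results of these data known. Genes are named by a rule: the 12 with the largest fold change each way at a mean of at least 100 normalized counts, the 3 members of each list with the lowest p, the core histones, and genes that the study or an earlier reading of these data names. Other names (*hsp-60*, *lonp-1*, *ymel-1*, *atfs-1*, *dve-1*, *jmjd-1.2*, *nduf-2.2*, *cyc-2.2*, *COX2*, *ATP6*, *gpd-1*, *gpd-4*, *pfk-1.2*, *gst-4*, *elt-2*, *fbn-1*, *vit-2*, the 8 higher collagens and the genes without reads) were chosen after their values were seen. Names and positions were taken from the Ensembl release 115 annotation, also on WBcel235, with positions for 16702 of the 16817 genes; RefSeq gave the names of 9 mitochondrial genes and of genes that share a symbol.

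On simulated counts for 16817 genes, edgeR recovered 98 of 100 genes changed by a log2 size of 1 and 100 of 100 changed by 2, with 16 false calls. The simulation gave every gene the same coefficient of variation and changed no gene with very few reads. Far fewer genes differed in it than in the real data. Its recovery and false calls therefore do not carry over to genes with few reads or a wider spread. Alternatives were limma-voom 3.58.1, DESeq2 1.42.0, other scalings, filters and thresholds, a fit of the 6 libraries, the replicate number as a block, and leaving out each library. The authors' sequence reads were not used here.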

Additional observations from a re-analysis of the deposited data

Results flagged for a closer look

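The reads outside the tested genes set the *his-3* RNAi libraries apart. The share of reads in no annotated gene was 0.752 ± 0.0416% with *cco-1* RNAi, 1.04 ± 0.0780% with *his-3* RNAi and 0.767 ± 0.0194% in EV (SD, n = 3 each). Genes too low to be tested took a mean of 259 RPM (reads scaled to the library total) with *cco-1* RNAi (254 to 262), 802 with *his-3* RNAi (769 to 836) and 202 in EV (195 to 207). Among these genes, 2677 to 2859 had at least 1 read with *cco-1* RNAi, against 3604 to 3859 with *his-3* RNAi and 2695 to 2781 in EV. None of these genes enters the main comparison. Those with a read enter the comparison without a filter (409 higher and 1667 lower genes by at least 4-fold). Some can also enter under edgeR's own filter, filterByExpr (332 higher and 1311 lower). The reads in no annotated gene enter no comparison. The values were above the EV level in all 3 *his-3* RNAi libraries. They stand beside the larger number of 4-fold lower genes in the direct comparison, and their part in it was not tested.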

How the results depend on the processing

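The 4-fold calls were 315 higher and 1210 lower. They were 292 and 920 with the filter on 6 libraries, 409 and 1667 with no filter, 342 and 1192 with DESeq2, 323 and 1207 with limma-voom, and between 313 and 348 higher and 1194 and 1242 lower when 1 library was left out. At any fold, 5354 genes were higher and 6190 lower, against 5043 to 5366 and 5841 to 6069 without 1 library, and 3410 were higher and 7305 lower when scaled by *act-1* and *pmp-3*. The larger side at any fold changed with DESeq2 size factors (5843 higher and 5764 lower) and with DESeq2 (5497 and 5396). A log2 threshold of 1 gave 1383 higher and 2187 lower genes, and testing for a log2 size above 1 gave 974 higher ones. The deviations of same-numbered libraries correlated between −0.015 and 0.06, and those of libraries with different numbers between −0.09 and 0.079. No deviation shared by number was thus seen, and whether cultures of the same number were handled together is not given. With the replicate number as a block, 317 and 1211 genes passed the 4-fold threshold and 5325 and 6163 any fold.

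Of 56 list medians, 45 kept their sign in every setting, among them all 34 over 0.4 in size. Under library size only and under *act-1* and *pmp-3* scaling, the medians turned to −0.0525 and −0.0868 for the cytosolic ribosome, −0.0465 and −0.0787 for muscle markers, −0.0780 and −0.111 for neuronal markers, −0.0301 and −0.0631 for the sarcomere, −0.0470 and −0.0864 for reference genes, −0.0361 and −0.0754 for small RNA genes, −0.0227 and −0.0646 for small heat-shock proteins, −0.0733 and −0.107 for ER chaperones, −0.0974 and −0.133 for neuropeptides and −0.118 and −0.155 for the proteasome. Without library 1 of *his-3* RNAi the medians of neuropeptides and the proteasome turned to −0.00769 and −0.00323, and with the filter on 6 libraries those of fat oxidation and the proteasome turned to 0.00759 and −0.00361. The *pals* median was −0.765 under that filter. Both scalings move all genes together, as given in the report; beyond that, the cause was not tested. Of 4803 values of 256 named genes under alternatives, 4741 stayed on their side of the threshold, 48 lost the call, 14 gained it and 0 reversed. *hsp-16.48* lost its call (−0.40, adjusted p = 0.0466) without library 1 of *cco-1* RNAi (0.158), library 2 of *cco-1* RNAi (0.109), library 1 of *his-3* RNAi (0.257) or library 3 of *his-3* RNAi (0.176). Of 835 genes with a mean under 10 normalized counts, 34.9% passed the adjusted p, a share that the filter shapes; what depth contributes was not tested.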

Other observations

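A few further gene groups complete the comparison. F-box genes, whose proteins select targets for degradation and which form a large family in *C. elegans*, were higher with *cco-1* RNAi in 47 of 167 cases (28.1%) and lower in 61 (36.5%), beside 31.8% and 36.8% of all tested genes. By at least 4-fold, 2 were higher (1.198%) and 14 lower (8.38%), beside 1.87% and 7.2% of all tested genes, so that the shares of the family lay near those of all genes. *fbxa-24* had 232, 304 and 208 normalized counts with *cco-1* RNAi, against 1651, 1887 and 2013 with *his-3* RNAi (log2 fold change −2.89, standard error 0.105, adjusted p = 2.35e-13). *fbxa-163* had 14.3, 18.97 and 7.95 normalized counts with *cco-1* RNAi, against 299.8, 243 and 271 with *his-3* RNAi (log2 fold change −4.27, standard error 0.204, adjusted p = 9.16e-12). Both were highest with *his-3* RNAi, and EV had 53.7 ± 8.09 for *fbxa-24* and 14.4 ± 6.38 for *fbxa-163* (SD, n = 3). Of 125 neuropeptide and insulin-like genes, 31 were higher (24.8%) and 25 lower (20%), both below the 31.8% and 36.8% of all tested genes. *nlp-24*, an antimicrobial-type peptide gene, had 2247, 2181 and 2276 normalized counts with *cco-1* RNAi, against 799, 650.3 and 869 with *his-3* RNAi (log2 fold change 1.53, standard error 0.0737, adjusted p = 1.02e-11), without overlap.

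Of 26 genes of superoxide dismutases, catalases and peroxiredoxins, 19 were higher and 6 lower (median 0.46). *trx-2*, the gene of mitochondrial thioredoxin, had 3240.4, 3187 and 3241 normalized counts with *cco-1* RNAi, against 1164, 964 and 1211 with *his-3* RNAi (log2 fold change 1.53, standard error 0.0625, adjusted p = 1.11e-12). Of 25 genes of the one-carbon and methionine cycle, 13 were higher and 7 lower (median 0.20), and *cbs-1*, the cystathionine beta-synthase gene, had 2852, 2995 and 2936 normalized counts with *cco-1* RNAi, against 1081, 1031 and 1125 with *his-3* RNAi (log2 fold change 1.44, standard error 0.0462, adjusted p = 4.73e-14). Of 11 genes of propionate breakdown, 8 were higher and 2 lower (median 0.63), and *mmcm-1*, the methylmalonyl-CoA mutase gene, had 6584, 6531 and 6337 normalized counts with *cco-1* RNAi, against 4004, 4068 and 4269 with *his-3* RNAi (log2 fold change 0.66, standard error 0.041, adjusted p = 3.27e-10). The groups of these 3 genes were separate, and EV had 1392 ± 26.4 for *trx-2*, 1585 ± 52.1 for *cbs-1* and 4287 ± 36.6 for *mmcm-1* (SD, n = 3). *pud-3* and *pud-4*, a pair of genes known for their change in insulin-signalling mutants, had log2 fold changes of −0.78 and −0.67, with both treatments far below EV. Of 16817 genes tested, 704 were pseudogenes, of which 1.85% were 4-fold higher and 6.68% lower, close to the 1.88% and 7.19% of protein-coding genes.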
